A study of Homo sapiens with 9 samples.

Results

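STC1 and STC2 are the stanniocalcin genes, and they make up 2 of the 34961 genes in the expression table of a human stem cell line taken through differentiation toward serotonin neurons. They were chosen by gene symbol, and the choice was made on their measured levels in these libraries, so the levels, ranks and differences of both genes are given as a description and with no test. The cells were of the line WA09, or H9, established from a human embryo, and every library came from cells in which EGFP had been knocked in at TPH2, so no group lacked the reporter. By their labels, the 3 Day0 libraries hold hESCs, human embryonic stem cells, the 3 of Day21 hold neural progenitor cells and the 3 of Day42 hold TPH2+ serotonin neurons. All 9 libraries carry the same treatment label, an induced differentiation toward serotonin neurons, Day0 included. The line is a single one, how many knock-in clones it stands for is not given here, and the labels do not say whether the Day42 cells were sorted by EGFP. Libraries of a day are numbered as biological replicates, but whether each is a differentiation of its own is not said, so a p-value here measures only library spread, which may be technical.

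Stanniocalcins are secreted glycoprotein hormones, first known from the corpuscles of Stannius of bony fish, where they hold down calcium uptake. In mammals both are made in many tissues and act mostly near the cells that release them. Both bind and inhibit the pappalysins PAPPA and PAPPA2, proteases that cut IGF-binding proteins and so free insulin-like growth factors. STC2 is a known target of ATF4 in the unfolded protein and integrated stress responses, both genes have been described as induced by low oxygen, and STC1 has been studied as a neuroprotective factor in brain tissue.

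Libraries held between 58526466 and 69658328 counts. Day42 libraries listed fewer genes above 0 than the others, 16077, 17101 and 10797 in replicates 1, 2 and 3, against 22198 to 24741 on Day0 and Day21. Day42 replicate 3 stood apart: across genes, which are not independent replicates, its log2 levels had a Pearson correlation of 0.668 and 0.666 with the other Day42 libraries, against 0.811 between those. The 8 serotonin neuron markers summed to between 1117 and 1348 CPM in the Day42 libraries, against 3.76 to 7.82 on Day0 and 7.01 to 8.46 on Day21, though SLC6A4, the serotonin transporter, was at 0 on Day42. Neuron markers summed to between 7313 and 8459 CPM on Day42 and to at most 1215 CPM before, and all 7 pluripotency markers were at or under the limit of a count of 0 there. Progenitor markers were highest on Day21, at 1282 to 1436 CPM, and 7 of 7 were above that limit. CPM are library-scaled counts, here set by TMM, a method that sets libraries to a common level over most genes. A count of 0 allows up to 12 counts in a library, because counts pile up at multiples of 4 and the limit was set at 3 such steps, and it covers counting error only.

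STC1 encodes the founding mammalian member of the family. In the table it is ENSG00000159167, on chromosome 8 from 23841929 to 23854806 on the minus strand of GRCh38.

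STC2, its paralog, is ENSG00000113739, on chromosome 5 from 173314713 to 173329503, also on the minus strand. No other gene model of GENCODE release 29 overlaps either gene, so their counts are not shared with a neighbour by position. The longest GENCODE transcript has 4 exons in both genes, and the inner exons have the same lengths in both, 143 bases for exon 2 and 212 bases for exon 3. The outer exons differ: exon 1 is 402 bases in STC1 and 1461 bases in STC2, and exon 4 is 3126 and 3537 bases.

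The start region of STC2 was searched for the short motifs linked with the stress and oxygen responses named above. In the RefSeq promoter table for GRCh38.p14, which gives 250 bases before and 50 bases after a start site, the STC2 window held the hypoxia response core GCGTG at 3 positions over both strands. Of the 35116 windows in that table, 36.54% held this motif at least once. A CCAAT box, written CCAAT or in reverse ATTGG, occurred once in STC2 and in 34.61% of windows. Stretches of 30 bases are shown, 5′ to 3′ on the minus strand, since they carry the forward copy of the GCGTG core and the only CCAAT box of this window, with the motif in capitals:
STC2 GCGTG core, chr5:173328620-173328649: cacgcacgcaaacGCGTGgccgccgccagg
STC2 CCAAT box, reversed, chr5:173328498-173328527: gccggggtctcggATTGGtccagccgccgg
The capitals lie at -222 to -218 and at -100 to -96 from the RefSeq start. The other matches of the core are reverse copies, CACGC, just upstream. The window held no ACGTG, the other hypoxia core (21.41% of windows held it), no TGATGNAA, an ATF4 and C/EBP composite motif (3.62%), no ER stress element (0.08%) and no TATAAA (11.53%). The RefSeq start lies 1089 bases inside the GENCODE start, so the whole window falls in the first exon of the GENCODE transcript. A match is a description of these letters, and no match says only that the letters are not in this window.

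STC1 was lower on Day21 than on Day0 and stood at one of the highest levels of any gene on Day42. Its raw counts were 3137, 4897 and 3724 at Day0, 401, 292 and 328 at Day21, and 248994, 274926 and 243373 at Day42. The 3 days did not overlap, and the libraries of a day lay close together on all of them. On the scaled level, STC1 stood at 70.25, 88.89 and 60.74 CPM on Day0, then at 5.82, 5.33 and 5.93 CPM on Day21, and at 3190, 3241 and 2887 CPM on Day42. The means were 73.3 ± 14.3, 5.69 ± 0.318 and 3106 ± 191 CPM (SD, n = 3 each).

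From Day21 to Day42 the mean CPM of STC1 was 545.5 times higher, and over all pairs of libraries the fold lay between 487 and 608. Against Day0 it was 42.4 times higher on Day42, with pairs between 32.5 and 53.4. Day21 lay lower than Day0 by 12.9 times in mean CPM. The fitted log2 differences were -3.69 ± 0.19 (SE) from Day0 to Day21, 9.09 ± 0.24 from Day21 to Day42 and 5.41 ± 0.21 from Day0 to Day42. All 3 are larger than the spread between libraries of a day. The Day42 difference is larger in mean FPKM, a level per length of transcript and per library, at 854 times Day21 and 69.3 times Day0. The FPKM do not follow the count totals used here exactly, and their library scaling was not given. TMM gave Day42 libraries factors of 1.21 to 1.39, against 0.763 to 1.04 before, and with library totals in their place the log2 differences on Day42 were 9.61 and 6.04. That scaling moves the median of all tested genes by 0.535 and 0.578 in the same comparisons, so STC1 shifted with the rest.

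The Day21 level of STC1 was low but not at 0. At 292 to 401 counts it lay far above the limit of 12 counts in every Day21 library. It took 0.000439 to 0.000605% of all counts then, against 0.00536 to 0.00742% on Day0. On Day42, STC1 alone took 0.419, 0.450 and 0.349% of all counts, or 1 count in every 239, 222 and 286. In bulk samples, fewer cells that express a gene and less RNA of it per cell cannot be told apart.

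**Figure D1:**
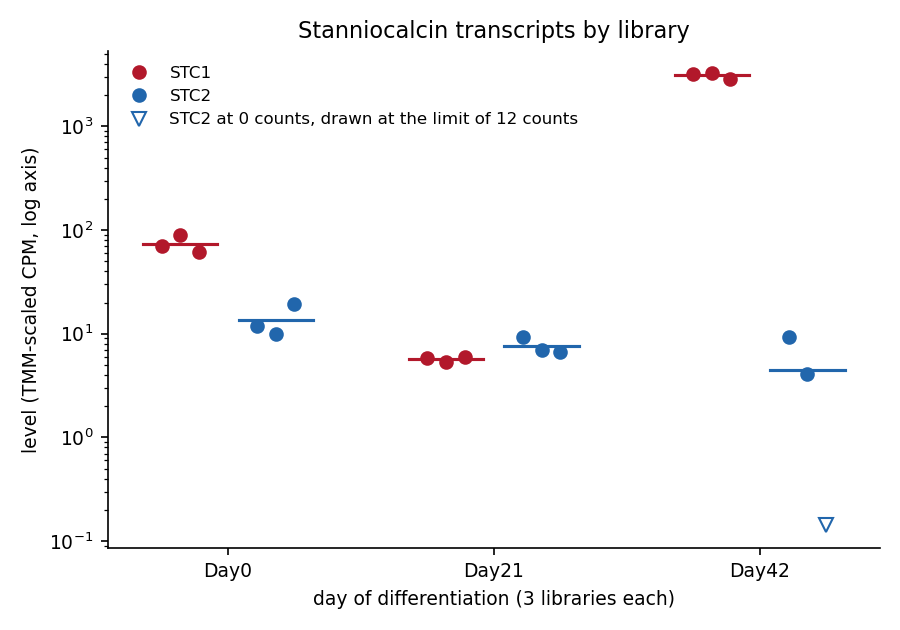
Levels of STC1 (red) and STC2 (blue) in each of the 9 libraries, as TMM-scaled CPM on a log axis by day, with a line at the mean of the 3 libraries. STC1 lies at 60.74 to 88.89 CPM on Day0, at 5.33 to 5.93 on Day21 and at 2887 to 3241 on Day42, while STC2 stays under 20 CPM throughout and is at 0 in Day42 replicate 3, where the open triangle marks the limit of 12 counts.

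Ranked by FPKM among all genes of the table, STC1 was at 2535, 2256 and 2662 in the Day0 libraries, with FPKM of 10.7, 14.7 and 11.2. On Day21 its rank was 8896, 8988 and 8527, at 1.14, 0.852 and 0.985 FPKM. On Day42 it was at 36, 30 and 46, at 865, 925 and 751 FPKM. STC1 was thus among the top 46 genes in every Day42 library. By raw counts, which favour long transcripts, its Day42 ranks were 15, 11 and 17.

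By mean FPKM, STC1 ranked 2488 at Day0, 8844 at Day21 and 37 at Day42, and 11 of the 36 genes above it on Day42 belong to the mitochondrial genome. The 10 genes with the highest mean FPKM on Day42 were TMSB10, TMSB4X, MT-CO2, MT-RNR2, MALAT1, FTL, MLLT11, YWHAH, FTH1 and TMSB4XP8. They are thymosins, mitochondrial transcripts, a nuclear long noncoding RNA, ferritin chains and others, and TMSB4XP8 is a pseudogene whose reads cannot be told apart from those of TMSB4X with certainty. The next 3 below STC1 were MT-CO3 at 834 ± 115 FPKM, STMN1 at 765 ± 342 and UBB at 757 ± 173 (SD, n = 3 each). STC1 itself was at 847 ± 88.4 FPKM, so it does not differ from these neighbours beyond their spread. Just above it stood SCG2, the granin secretogranin II of neuronal secretory granules, at 882 ± 69.7 FPKM, and SH3BGRL3 at 868 ± 128, both named after their values were seen, which do not differ from STC1 beyond their spread either.

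**Figure D2:**
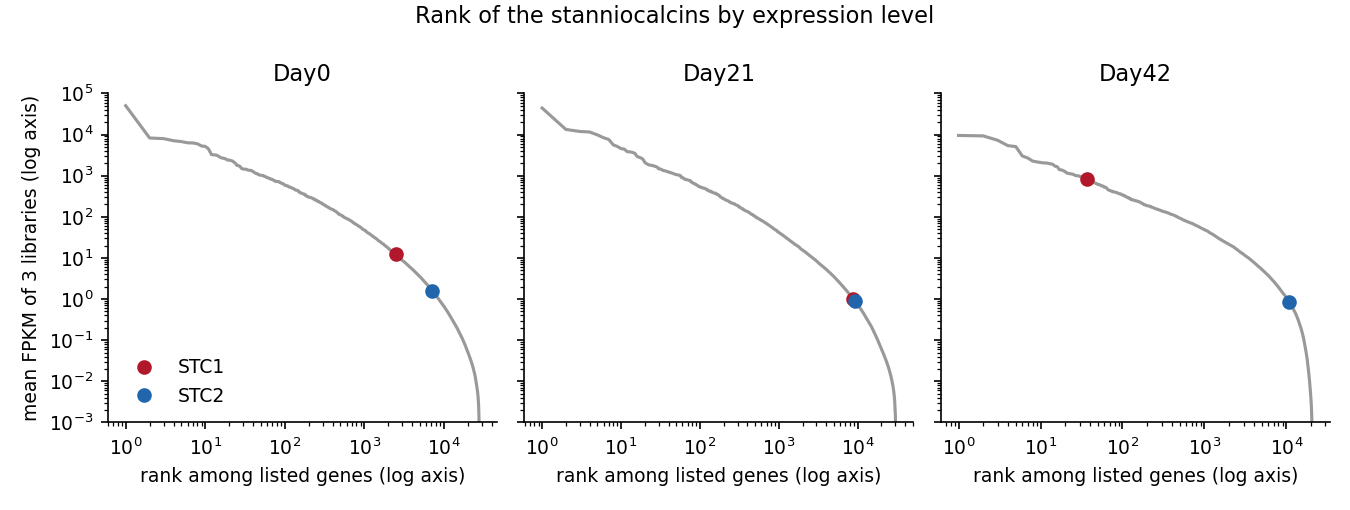
Mean FPKM of 3 libraries (log axis) against rank among the genes of the table (log axis) for each day, as a grey curve, with STC1 in red and STC2 in blue. STC1 sits at rank 2488 at Day0, 8844 at Day21 and 37 at Day42, and STC2 moves from 7228 to 9162 and 10906.

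STC1 was set beside other genes that were abundant on Day42. Of the 466 genes whose mean FPKM reached 100 on Day42, the median gene stood at 1.10 times its Day21 level and at 1.05 times its Day0 level. Only FEV, the transcription factor of serotonin neurons, and CRYBA2, a crystallin gene, had a larger fold than STC1 from Day21, and 17 genes had a larger fold from Day0, beside 1 that was at 0 there. FEV and CRYBA2 were singled out after their values were seen. STC1 was itself chosen on its levels and reached 100 FPKM on Day42 alone, so its place among these genes is only a description. Over all 20156 genes tested, 44 had a higher fitted log2 difference than STC1 from Day21 to Day42 and 592 from Day0 to Day42, and 1082 had a lower one from Day0 to Day21. Between Day42 libraries the coefficient of variation of STC1 in FPKM was 10.4%, against a median of 18.1% for those 466 genes. Of these, 89 (19.1%) had a lower one. They take in all genes from 100 FPKM up, so they are not matched to the level of STC1. Day42 replicate 3, the library that stands apart, gave 2887 CPM of STC1, and leaving out any 1 library moved the 3 log2 differences only within -3.80 to -3.52, 9.04 to 9.16 and 5.28 to 5.56.

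STC2 did not share this course. Its raw counts were 534, 546 and 1180 at Day0, 635, 384 and 370 at Day21, and 727, 346 and 0 at Day42. Levels were 11.96, 9.91 and 19.25 CPM on Day0, then 9.22, 7.01 and 6.69 CPM, and 9.31, 4.08 and 0 CPM on Day42. The Day42 libraries spread more widely than those of the other days, and they overlapped Day21 and lay narrowly under Day0, with 9.31 CPM in the highest Day42 library and 9.91 CPM in the lowest Day0 library. In FPKM, Day0 libraries held 1.23, 1.10 and 2.40, Day21 libraries 1.21, 0.755 and 0.748, and Day42 libraries 1.70, 0.781 and 0, so that all 3 days overlapped.

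Mean levels of STC2 were 13.7 ± 4.91, 7.64 ± 1.38 and 4.46 ± 4.67 CPM (SD, n = 3 each). The fitted log2 differences were -0.84 ± 1.57 (SE) from Day0 to Day21, -0.77 ± 1.57 from Day21 to Day42 and -1.62 ± 1.60 from Day0 to Day42. These standard errors were worked back from the test statistic of the fit, so they are not a separate measure of spread. Both Day42 differences were smaller than the SD of log2 CPM between Day42 libraries, 4.46. The first was larger than the SD within its own days, 0.49 among Day0 libraries and 0.25 among those of Day21. In CPM every Day21 library lay below every Day0 library, though in FPKM they overlapped. The fit took in all days, so the wide Day42 spread also enters the standard error of that first difference. The 0 in Day42 replicate 3 weighs on both Day42 values: without that library the mean was 6.70 CPM over the other Day42 libraries, and the log2 differences were -0.18 from Day21 and -1.04 from Day0. Leaving out Day42 replicate 1 in its place moved them the other way, to -1.899 and -2.75. By FPKM, STC2 ranked 7588, 7984 and 6317 at Day0, 8659, 9458 and 9484 at Day21, and 8604 and 11411 in the Day42 libraries where it was found.

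A count of 0 at this level was common in Day42 replicate 3. Of 1934 genes at 5 to 10 CPM in the other Day42 libraries, 986 (51.0%) were at 0 in replicate 3. In the same count, 8.20% of such genes were at 0 in Day42 replicate 1 and 5.38% in replicate 2, and at most 0.180% in any library of Day0 or Day21. Whether the cells of that library lacked STC2 RNA was not tested.

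The paralogs therefore parted on Day42. The ratio of STC1 to STC2 in FPKM was 8.72, 13.3 and 4.68 on Day0, and 0.939, 1.13 and 1.32 on Day21. On Day42 it was 508 and 1184 in replicates 1 and 2. In replicate 3, where STC2 was at 0, STC1 stood at 27226 times the limit of 12 counts of STC2. That limit covers counting error only, and 51.0% of genes at the level of STC2 were at 0 in that library, so the value is not a firm bound. STC1 thus led on Day0, lay close to STC2 on Day21 and led again, far more, in every Day42 library.

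The genes whose course over the 9 libraries was most like that of STC1 were MSMO1, NRIP3, CXADR, VAT1L and RCAN2. They were ranked by the Pearson correlation of log2 CPM among 4342 genes whose mean FPKM reached 10 on their highest day, and the correlation was 0.995, 0.994, 0.994, 0.993 and 0.992. The points share libraries and fall into 3 days, so the measure mostly reads how alike the day means are, and 64 genes reached at least 0.95. MSMO1, an enzyme of cholesterol synthesis, went from 390 ± 46.0 to 153 ± 10.3 and 1119 ± 47.9 CPM (SD, n = 3 each). NRIP3, a nuclear receptor interacting protein, went from 10.6 ± 4.16 to 1.71 ± 0.102 and 149 ± 50.6 CPM. CXADR, the coxsackievirus and adenovirus receptor of cell junctions, VAT1L, and RCAN2, an inhibitor of the phosphatase calcineurin, had the same low point on Day21 and high point on Day42. Their fitted rises from Day21 to Day42, between 2.87 and 6.44 on the log2 scale, were all smaller than that of STC1. All 5 stayed the top 5 when Day42 replicate 3 was left out.

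The genes most like STC2 were DAXX, SYPL1, IFRD2, NUP88 and YARS2, with correlations of 0.993 to 0.995, and 238 of 4343 genes reached at least 0.95. All 5 had at most 10 counts in Day42 replicate 3 and at least 795 in every other library. Without that library none of the 5 stayed among the top 5, which were then VCP, EIF3C, CD3EAP, TWF2 and GPC3, at 0.931 to 0.958. The 5 still had correlations of 0.872 to 0.925 with STC2 over the 8 other libraries, at orders from 8 to 30.

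**Figure D3:**
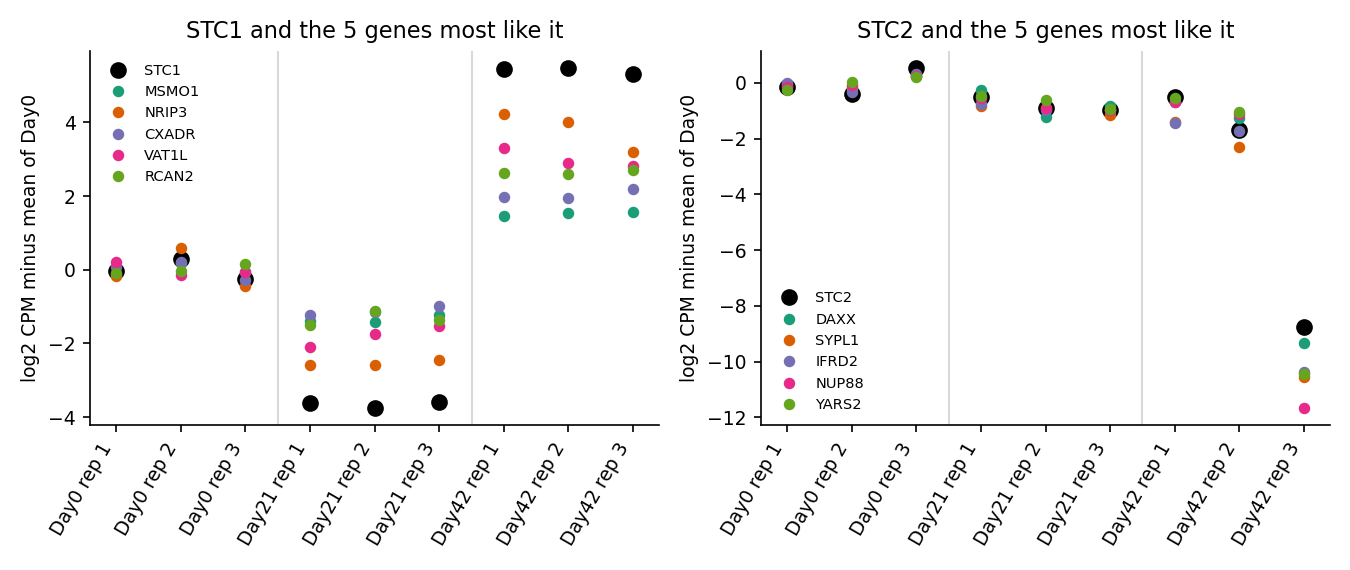
Log2 CPM minus the Day0 mean in each of the 9 libraries, for STC1 with the 5 genes most like it and for STC2 with the 5 genes most like it. The STC1 group dips in all Day21 libraries and rises in all Day42 libraries, with STC1 at the extremes, and the STC2 group drops in Day42 replicate 3 alone to more than 8 below Day0.

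The pappalysins, which stanniocalcins bind, were low or at 0 in several libraries. PAPPA, the pappalysin that cuts IGFBP4, had counts of 0, 0 and 0 at Day0, 1883, 1037 and 1110 at Day21, and 783, 160 and 0 at Day42. The Day21 mean lay 97.2-fold above the Day0 limit, and the Day21 libraries lay apart from both other days. Yet that difference between Day21 and Day0 failed the test (edgeR adjusted p = 0.0737). It passed in 5 of 17 alternatives, over which adjusted p ranged from 2.88e-06 to 0.321, and without Day42 replicate 3 it was 0.00255. The Day42 mean lay 17.5-fold above the Day0 limit, though replicate 3 was at 0 and the libraries of these days did not lie apart. This difference passed (edgeR adjusted p = 0.0348), but not in 10 of 16 alternatives, where adjusted p ranged from 8.3e-05 to 0.283 over all 16. Without Day42 replicate 3 it was 0.00114, and it was lost on leaving out Day42 replicate 1 or any 1 library of Day0 or Day21. PAPPA2, the pappalysin that cuts IGFBP5, had 0, 2 and 17 counts at Day0, 109, 25 and 55 at Day21, and 584, 0 and 0 at Day42, and no difference passed the test (edgeR adjusted p = 0.270 to 0.778). PAPPA was thus highest on Day21, the day on which STC1 was lowest, and low or at 0 on Day42. Its difference of -2.48 ± 1.92 from Day21 to Day42 did not pass the test, however (edgeR adjusted p = 0.431). It was called in 0 of 17 alternatives, and without Day42 replicate 3 edgeR gave an adjusted p of 0.113.

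IGFBP4 and IGFBP5, the best known substrates of pappalysins, were both lower on Day42 than on Day21. IGFBP4 had counts of 619, 536 and 2670 at Day0, 1453, 576 and 428 at Day21, and 0, 9 and 4 at Day42, all of them under the limit of 12. It fell by 7.94 ± 1.47 on the log2 scale from Day21 (edgeR adjusted p = 0.0054), and compared with Day0 it fell by 8.71 ± 1.52 (edgeR adjusted p = 0.00343). These fitted sizes depend on the prior count, since Day42 is within the limit. IGFBP5 had 8, 34 and 5 counts at Day0, 6836, 4960 and 3833 at Day21, and 731, 895 and 96 at Day42. It rose by 8.20 ± 1.21 to Day21 (edgeR adjusted p = 0.0125) and fell by 3.62 ± 0.98 after it (edgeR adjusted p = 0.0266), staying above Day0 by 4.57 ± 1.03 (edgeR adjusted p = 0.0104). Leaving out 1 library ended the first call for either of Day0 replicates 1 and 3 and any Day21 library, and the second for any Day21 library or Day42 replicate 1.

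Other carriers of insulin-like growth factors, of which IGFBP2 and IGFBP3 have also been described as pappalysin substrates, were called too. IGFBP2 stood at 175 ± 57.4 CPM on Day0, rose by 2.46 ± 0.33 to 965 ± 197 CPM on Day21 (edgeR adjusted p = 0.00808, lost on leaving out Day0 replicate 1) and fell by 3.06 ± 0.33 to 116 ± 30.6 CPM on Day42 (edgeR adjusted p = 0.000839). IGFBP3 was at 8.05 ± 2.90, 135 ± 29.4 and 100.4 ± 23.5 CPM on the 3 days, and Day42 lay 3.64 ± 0.38 above Day0 (edgeR adjusted p = 0.00047), while its Day42 difference from Day21 of -0.43 ± 0.34 did not pass (edgeR adjusted p = 0.432). IGF2, the ligand, rose by 3.65 ± 0.74 from Day0 to Day21 (edgeR adjusted p = 0.0447, lost on leaving out any 1 library of either day), and its counts are uncertain because gene models overlap it on the same strand. IRS1, the adaptor that carries the receptor's signal, rose by 2.64 ± 0.66 after Day21 (edgeR adjusted p = 0.0189, lost on leaving out any 1 Day21 library) and was 3.94 ± 0.70 above Day0 (edgeR adjusted p = 0.00368).

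Of the 17 genes of the IGF axis listed, 13 were tested. From Day0 to Day21, 4 rose and 0 fell (edgeR at adjusted p under 0.05 and a log2 difference of at least 1), where 1.32% of all tested genes rose and 1.18% fell. At an unadjusted p under 0.05, 5 were higher and 0 lower, and DESeq2 called 5 higher and 0 lower. Between Day21 and Day42, 2 rose and 3 fell, against 6.52% and 19.7% of all tested genes. Between Day0 and Day42, 5 rose and 1 fell, against 8.82% and 23.4%. The median log2 difference of the list was 1.30, -0.43 and 3.25 in these comparisons, and that of all tested genes was 0.03, -0.54 and -0.57. Without Day42 replicate 3 the Day42 counts were 3 higher and 3 lower against Day21, and 6 higher and 2 lower against Day0. All tested genes then split into 2416 higher and 4859 lower against Day21, and 3220 and 5664 against Day0. With library totals in place of TMM, all tested genes split into 1998 higher and 3396 lower in place of 1315 and 3980 from Day21 to Day42, and 2561 and 3893 in place of 1778 and 4721 from Day0 to Day42. The list's own split was then 2 and 3 against Day21, and 6 and 1 against Day0.

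The integrated stress response, through which STC2 is known to be induced, moved in both directions. ATF4, its central transcription factor, had counts of 8166, 973 and 1943 at Day0, 2681, 5129 and 1955 at Day21, and 10727, 13339 and 18848 at Day42. Day42 libraries were all above those of Day21 but not above all those of Day0, and no difference passed the test (edgeR adjusted p = 0.942, 0.20 and 0.34). DDIT3, the factor CHOP downstream of ATF4, stood at 23.8 ± 7.11, 97.5 ± 22.1 and 219.6 ± 69.1 CPM on the 3 days and rose by 3.20 ± 0.38 from Day0 to Day42 (edgeR adjusted p = 0.000775). Its smaller rises of 2.03 ± 0.36 to Day21 (edgeR adjusted p = 0.0253) and 1.17 ± 0.35 after it (edgeR adjusted p = 0.0393) were each lost on leaving out any of 6 libraries, and DDIT3 overlaps a gene model on the same strand.

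Other members of that response rose with more room. ATF3, a stress-induced factor, rose by 2.95 ± 0.61 after Day21 (edgeR adjusted p = 0.00897). PPP1R15A, the phosphatase subunit GADD34 that reverses the block on translation, had 230, 193 and 679 counts at Day0, 2941, 1669 and 1013 at Day21, and 20639, 25221 and 9489 at Day42. Its days did not overlap, and it rose by 2.88 ± 0.59 after Day21 (edgeR adjusted p = 0.00808) and by 5.09 ± 0.65 in all (edgeR adjusted p = 0.00113). EIF2AK3, the sensor kinase PERK, rose by 3.56 ± 0.58 from Day21 (edgeR adjusted p = 0.00354). The serine synthesis genes PHGDH and PSAT1, which ATF4 is also known to induce, fell by 2.25 ± 0.39 (edgeR adjusted p = 0.00427) and by 1.69 ± 0.41 (edgeR adjusted p = 0.0173) from Day21 to Day42, both named after their values were seen.

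In counts, 1 of the 24 tested genes of the stress response list rose and 0 fell from Day0 to Day21 (3 and 1 at an unadjusted p under 0.05, and 3 and 0 by DESeq2). Of all tested genes, 1.32% rose and 1.18% fell in that step. In the second step 6 rose and 4 fell, and from Day0 to Day42, 5 rose and 3 fell. These shares stand beside the 6.52% higher and 19.7% lower, and the 8.82% and 23.4%, of all tested genes. The list's median log2 differences were -0.14, 0.42 and 0.41. Without Day42 replicate 3, calls over all genes grew from 5295 to 7275 and from 6499 to 8884. The list's counts were then 5 and 4 in both Day42 comparisons. With library totals they were 7 and 2 in both, and limma on log2(FPKM + 1), with 22 members tested, called 10 and 3 after Day21 and 10 and 2 from Day0 to Day42.

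Genes of the unfolded protein response in the endoplasmic reticulum were split as well. DNAJB9, a co-chaperone of that compartment, had 768, 1098 and 1058 counts at Day0, 1163, 865 and 1126 at Day21, and 3818, 8226 and 15197 at Day42, and rose by 2.62 ± 0.49 from Day21 (edgeR adjusted p = 0.00548). SDF2L1, another chaperone partner, went the other way, from 348 ± 71.6 to 202 ± 52.2 and 29.8 ± 17.6 CPM, and fell by 2.77 ± 0.45 after Day21 (edgeR adjusted p = 0.00359). SYVN1, the ubiquitin ligase of the degradation pathway, fell by 2.61 ± 0.39 (edgeR adjusted p = 0.00268), but a gene model overlaps it on the same strand. HSPA5, the master chaperone BiP, fell by 1.24 ± 0.16 from Day0 to Day42 (edgeR adjusted p = 0.00119), a call lost with library totals and with limma at either pseudocount, and its Day21 difference of -0.83 ± 0.16 was under the size needed for a call.

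Of the 19 genes of that list, all were tested. None was called from Day0 to Day21 by edgeR, where 1.32% of all tested genes rose and 1.18% fell. At an unadjusted p under 0.05, 1 was higher and 2 lower, and DESeq2 called 0 higher and 1 lower. After Day21, 3 rose and 4 fell, where 6.52% of all tested genes rose and 19.7% fell. Between Day0 and Day42, 3 rose and 5 fell, where 8.82% and 23.4% did, and with library totals 4 rose and 4 fell. These became 2 and 6, and 2 and 7, without Day42 replicate 3. Calls over all genes then grew from 5295 to 7275 and from 6499 to 8884. The median log2 differences of -0.15, -0.52 and -0.67 lay near those of all tested genes.

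Genes that low oxygen is known to induce were considered next, since both stanniocalcins have been described among them. BHLHE40, a hypoxia-induced repressor, had 74, 30 and 208 counts at Day0, 9, 25 and 5 at Day21, and 864, 1822 and 3107 at Day42. It was lowest on Day21 and highest on Day42, as STC1 was, with a rise of 6.67 ± 1.18 from Day21 (edgeR adjusted p = 0.00451) and a Day42 level 3.63 ± 1.02 above Day0 (edgeR adjusted p = 0.026, lost on leaving out Day0 replicate 1 or 2), and its difference between Day21 and Day0 did not pass (edgeR adjusted p = 0.15). BNIP3L, a mitophagy receptor, rose by 1.97 ± 0.26 from Day21 (edgeR adjusted p = 0.00173) and lay 2.79 ± 0.27 above Day0 (edgeR adjusted p = 0.000329), and a gene model overlaps it on the same strand. PDK1, the kinase that holds back pyruvate oxidation, rose by 2.62 ± 0.51 from Day21 (edgeR adjusted p = 0.00665).

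Some genes of the same list that serve glucose use were called lower in a step. LDHA, lactate dehydrogenase A, was at 563 ± 83.5, 64.2 ± 10.2 and 58.8 ± 19.2 CPM on the 3 days. It fell by 3.13 ± 0.29 to Day21 (edgeR adjusted p = 0.00199), and its Day42 difference from Day21 of -0.13 ± 0.27 did not pass (edgeR adjusted p = 0.808). SLC2A3, a glucose transporter, fell by 2.29 ± 0.36 to Day21 and rose by 1.59 ± 0.35 after it (edgeR adjusted p = 0.0152 and 0.011), the first lost on leaving out any 1 library of either day and the second on leaving out Day21 replicate 2 or 3. SLC2A1, the main glucose transporter of many cells, had 22435, 21906 and 14390 counts on Day21 and 1259, 2065 and 4 on Day42. It fell by 4.60 ± 1.47, which passed narrowly (edgeR adjusted p = 0.0495) and did not pass in 13 of 17 alternatives, while without Day42 replicate 3 it gave 0.000604.

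All 28 genes of the hypoxia target list were tested. From Day0 to Day21, 0 rose and 2 fell by edgeR, against 1.32% and 1.18% of all tested genes. At an unadjusted p under 0.05, 2 were higher and 5 lower, and DESeq2 called 1 and 4. After Day21, 5 rose and 3 fell, against 6.52% and 19.7% of all tested genes. Between Day0 and Day42, 4 rose and 5 fell, against 8.82% and 23.4%, and with library totals this split turned to 5 and 4. The medians were -0.06, -0.11 and -0.40 over the 3 comparisons. Leaving out Day42 replicate 3 made the counts 4 and 3 for Day21 against Day0, and 7 and 5, and 9 and 9, for Day42. Over all tested genes the counts were then 1434 and 1460, 2416 and 4859, and 3220 and 5664. With all libraries these were 266 and 238, 1315 and 3980, and 1778 and 4721.

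The factors themselves showed no call. HIF1A, the oxygen-regulated subunit, stood at 108 ± 26.8, 68.8 ± 22.3 and 136 ± 26.4 CPM, and its difference of 0.98 ± 0.32 from Day21 to Day42 did not pass (edgeR adjusted p = 0.0553, from 0.00655 to 0.191 over the alternatives). EPAS1, which encodes HIF-2α, had 35 counts in Day0 replicate 3, 4 counts in Day42 replicate 3 and 0 in all others, and was not tested. Of the 7 tested genes of that list edgeR called 0 in each comparison, with 0, 1 and 1 at an unadjusted p under 0.05, and DESeq2 called 0, 1 and 1. Of all tested genes, 1.32% rose and 1.18% fell from Day0 to Day21. After Day21 6.52% and 19.7% did, and from Day0 to Day42 8.82% and 23.4%. With Day42 replicate 3 left out, edgeR called 1 higher and 1 lower in both Day42 comparisons, and 1 higher from Day0 to Day21. Calls over all genes then grew from 504 to 2894 for Day21 against Day0, and from 5295 to 7275 and 6499 to 8884 for Day42.

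Minerals were the first known concern of stanniocalcins. Of 22 genes for calcium and phosphate hormones, their receptors and phosphate carriers, 19 were in the table and 9 had enough counts to be tested. The calcium-sensing receptor CASR, the klotho genes KL and KLB, the vitamin D receptor VDR and the calcium channels TRPV5 and TRPV6 were among those filtered out as too low. XPR1, the phosphate exporter, had 325, 465 and 472 counts at Day0, 1206, 1084 and 1104 at Day21, and 8982, 13754 and 9817 at Day42. Its days did not overlap, and it rose by 2.78 ± 0.30 from Day21 (edgeR adjusted p = 0.000796) and lay 4.07 ± 0.32 above Day0 (edgeR adjusted p = 0.000146). SLC20A1, a phosphate importer, rose by 1.64 ± 0.34 from Day21 (edgeR adjusted p = 0.00826), to 83.8 ± 17.8 CPM, a call lost on leaving out Day21 replicate 2.

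PTHLH, the parathyroid hormone-like hormone, had 0 counts in all Day0 libraries, 39, 10 and 16 at Day21, and 434, 406 and 0 at Day42. Its Day42 mean was 15.2-fold higher than the Day0 limit, though Day42 replicate 3 was at 0. That difference was called (edgeR adjusted p = 0.0361), a call lost on leaving out any 1 library other than Day42 replicate 3. By edgeR, 0 of the 9 were called from Day0 to Day21, beside 1.32% higher and 1.18% lower of all tested genes. At an unadjusted p under 0.05, 2 were higher and 2 lower, and DESeq2 called the same numbers. After Day21, 2 rose and 2 fell, beside 6.52% and 19.7% of all tested genes, and between Day0 and Day42, 2 rose and 3 fell, beside 8.82% and 23.4%. CALCA and CALCR fell in both comparisons and CYP27B1 in the latter, all named after their values were seen. With Day42 replicate 3 left out, 12 genes of the list were tested, and the counts were 3 and 3, and 2 and 5. Calls over all genes then grew from 5295 to 7275 and from 6499 to 8884.

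Calcium pumps, exchangers, buffers and store-operated channels gave 21 tested genes of 24. CALB1, the calcium buffer calbindin, was lowest on Day21, as STC1 was: 3736, 6158 and 3790 counts at Day0, 739, 531 and 675 at Day21, and 10156, 15645 and 15407 at Day42. It fell by 2.98 ± 0.32 to Day21 (edgeR adjusted p = 0.00295) and rose by 3.93 ± 0.34 after it (edgeR adjusted p = 0.00033). Unlike STC1, it ended only 0.951 above Day0 on the log2 scale (edgeR adjusted p = 0.0414). That was under the size needed for a call, though it was called in 5 of 17 alternatives. PVALB, the buffer parvalbumin, had 1148, 1573 and 1798 counts on Day21 and 0, 3 and 0 on Day42, and fell (edgeR adjusted p = 0.00221). ORAI1, the pore of store-operated calcium entry, had 655, 647 and 1943 counts on Day0, 1425, 781 and 603 on Day21 and 0 in all Day42 libraries. The Day21 mean of ORAI1 lay 105-fold above the Day42 limit for a count of 0 (edgeR adjusted p = 0.00101). That limit covers counting error only, so the value is not a firm bound.

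ATP2B1, the plasma membrane calcium pump, stood at 50.2 ± 4.09, 91.0 ± 8.89 and 225 ± 111 CPM and rose by 2.16 ± 0.36 from Day0 to Day42 (edgeR adjusted p = 0.00285). In this list 0 rose and 1 fell from Day0 to Day21 by edgeR, beside 1.32% and 1.18% of all tested genes. At an unadjusted p under 0.05 there were 3 and 2, and DESeq2 called 1 and 2. After Day21, 3 rose and 6 fell, beside 6.52% and 19.7% of all tested genes. Between Day0 and Day42, 2 rose and 5 fell, shares close to the 8.82% and 23.4% of all tested genes. Without Day42 replicate 3, calls over all genes grew from 5295 to 7275 and from 6499 to 8884. With 22 genes of the list tested, its counts were then 3 and 7, and 3 and 6. Under library totals they were 4 and 5, and 5 and 3, so the split of the second comparison turned with the scaling.

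**Figure D4:**
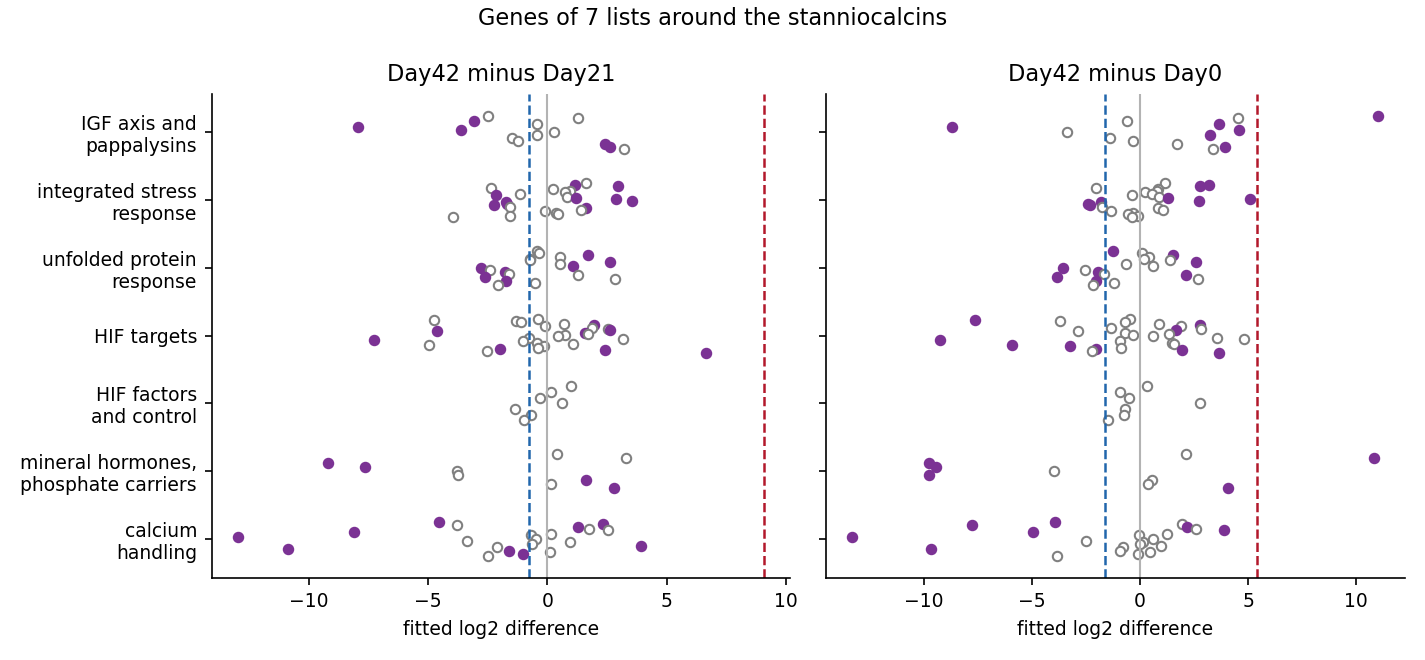
Fitted log2 differences of the tested genes of the 7 lists, from Day21 to Day42 and from Day0 to Day42, with called genes filled and the others open, and with dashed lines at STC1 (red) and STC2 (blue). No listed gene reaches the 9.09 of STC1 from Day21 to Day42, and PAPPA and PTHLH alone, both at 0 on Day0, lie above its 5.41 in the other comparison.

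Markers of cells that are known sources of stanniocalcins or could be present were read beside STC1. The 8 mesenchymal markers summed to 33.7 to 37.9 CPM on Day0, 590 to 641 CPM on Day21 and 125 to 157 CPM on Day42, and 8 of 8 were above the limit of a count of 0 on Day42. Their sum was highest on Day21, where STC1 was lowest. The 8 endothelial markers summed to 13.9 to 22.2, 6.79 to 10.7 and 0.551 to 5.18 CPM, with VWF, ERG and TIE1 at or under the limit on Day42. Astrocyte markers summed to 33.4 to 66.5 CPM on Day42, below their 68.8 to 70.1 CPM on Day21, with 4 of 7 above the limit and GFAP, AQP4 and ALDH1L1 at 0. One of them, SLC1A2, a glutamate transporter, was called higher on Day42 than on Day21, by 4.39 ± 0.70 (edgeR adjusted p = 0.00329), and stood at 19.6 ± 3.06 CPM. It was the only riser: of the 7 tested astrocyte markers, 1 rose and 3 fell from Day21 to Day42. Of all tested genes, 6.52% rose and 19.7% fell in that step. From Day0 to Day42, 1 of the 7 rose and 4 fell, beside 8.82% and 23.4%. Choroid plexus markers summed to 32.3 to 72.3 CPM on Day42 and 20.9 to 26.1 CPM on Day21, with 3 of 7 above the limit and FOLR1, CLIC6, AQP1 and OTX2 at 0. TTR, transthyretin, made up most of that sum at 46.6 ± 22.5 CPM on Day42 and was called higher than on Day0 (edgeR adjusted p = 0.00261). Of the 3 choroid plexus markers tested, 1 rose and 1 fell from Day0 to Day42. TTR and SLC1A2 were named after their values were seen. Each of these marker sums on Day42 lay under the 2887 to 3241 CPM of STC1. So did the serotonin neuron markers at 1117 to 1348 CPM, while the neuron markers at 7313 to 8459 CPM lay above it. A sum of markers sets no limit on the STC1 RNA of such cells, and their part in its level was not tested.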

How the data were processed

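Expression was measured by RNA sequencing in 9 libraries, prepared from small amounts of total RNA with a NEBNext low-input kit, per the labels' protocols. Of tools, the submitters' processing notes give cutadapt 1.9 and FastQC, and of builds GRCh38, each with no role. What aligner, counter, strand setting and annotation were used was not given in the sources used here. Per the file headers, the values are whole-number counts per gene and FPKM, a level per transcript length and library. The library total behind the FPKM was not given. Each column's name gave its library, and 0 columns were left over.

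Members and gene lists were chosen with earlier results of these data known. Genes kept by filterByExpr (20156) were fitted in edgeR 4.0.16 (R 4.3.3) by a quasi-likelihood model with TMM scaling, 1 mean per day and 6 residual degrees of freedom. A call needed a Benjamini-Hochberg adjusted p under 0.05 over all genes and an absolute log2 difference of at least 1. The SE of a fitted log2 difference was worked back from the test, as its absolute size over the square root of the F statistic. STC1 and STC2 were given no p. Counts of 4 occurred 7999 times, against 3658 of 3 and 3700 of 5, so a count is not an independent fragment. Named genes were STC1, STC2, the pappalysins PAPPA and PAPPA2, IGFBP4, IGFBP5, ATF4, DDIT3, HIF1A and EPAS1, then up to 3 called members per list and comparison with the largest change and a mean FPKM of at least 1, or the most expressed where none was called. To these came the 5 genes most like each member and the neighbours of STC1 in rank. Genes outside this rule are marked as named after their values were seen. Deviations of same-numbered libraries from their day means had correlations of -0.225 to 0.0266, so the numbers were not taken as pairs. Alternatives were DESeq2 1.42.0, limma 3.58.1 on log2(FPKM + 1) or + 0.1, other scalings and filters, a fit of the 2 days alone, a replicate block, and leaving out each library. The likeness without Day42 replicate 3 and the count of zeros at the level of STC2 were added after seeing the data. Figures used Python 3.11.15 and matplotlib 3.10.9. The gene models were those of GENCODE release 29, which held 96.9% of the identifiers, and the promoter window came from RefSeq.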

Additional observations from a re-analysis of the deposited data

How the results depend on the processing

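STC1 kept its direction in every comparison under all alternatives run. Its log2 difference moved to -2.72 from Day0 to Day21 under limma on log2(FPKM + 1). From Day21 to Day42 it was 9.61 with library totals, 8.73 under limma with a pseudocount of 1 and 9.60 with 0.1, and from Day0 to Day42 it was 6.04, 6.01 and 6.11. STC2 stayed negative in all of them. The 504 genes called from Day0 to Day21 became 2952 with DESeq2, 1036 with library totals, 1318 and 1344 with limma at pseudocounts of 1 and 0.1, and 5009 when only the days compared were fitted. With the replicate block, 109, 2420 and 3710 genes were called, against 504, 5295 and 6499. Leaving out 1 library gave 133 to 2894, 3301 to 7275 and 4617 to 8884, the highest of the first without Day42 replicate 3. Under limma on log2(FPKM + 1), calls split into 2117 higher and 1749 lower from Day21 to Day42, and into 2342 and 2083 from Day0. PAPPA2 from Day21 to Day42 went from 1.30 to between -8.995 and 1.897 on leaving out 1 library, the lowest without Day42 replicate 1. Of 357 counts of list members under alternatives, 282 stayed within 1.5 times, 35 were larger and 40 smaller. The cause of these moves was not tested.

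Libraries are deep, so counting error is small for STC1. For STC2 the limit is the evenness of the Day42 libraries: genes at its level are often at 0 in Day42 replicate 3. With 3 libraries a day and a wide spread on Day42, differences of low genes are poorly fixed.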
